A study of Mus musculus with 4 samples.

Results

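Neutrophils are a minor population of 4 mouse single-cell RNA libraries, and 165 of 55800 barcodes that passed quality filters were taken as neutrophils. A barcode was a member if it held at least 200 genes, at most 15% mitochondrial UMIs (molecules counted by their unique molecular identifiers), at least 10 UMIs of S100a8 and S100a9 together, at least 1 UMI over the 5 genes Csf3r, Cxcr2, Retnlg, Il1r2 and Hdc, and 0 UMIs of Cd3e, a T cell gene, and Cd79a, a B cell gene. RPR2 gave 28 members of 9149 barcodes, CRPR2 gave 91 of 12019, preSC_WT 5 of 18490 and preSC_CracdKO 41 of 16142. RPR2 and CRPR2 were lungs of a mouse model in which knockout of genes brings on small cell lung cancer. The name RPR2 usually stands for deletion of Rb1, Rbl2 and Trp53, and CRPR2 adds a deletion of Cracd, a regulator of actin capping. The labels give only the short names. The other pair were allograft tumours of preSC, a mouse precancerous neuroendocrine cell line, with the genotype labels WT and CracdKO. In the allografts the genotype is that of the grafted line, whereas the neutrophils belong to the host. The sources used here do not give the host strain and its immune state, the promoter or vector that drove the lung knockouts, the animals' ages or how many animals a library pools. Each group held 1 library, so there was no replicate check, no p-value was computed, and each interval below is a 95% interval of counting error only.

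The targeted gene did not follow the labels in the allografts. Cracd, listed in the files as C530008M17Rik, stood at 18.5, 14.2, 6.01 and 85.8 CPM, the UMIs of a gene scaled to the same total in each group of barcodes, in the non-member barcodes of RPR2, CRPR2, preSC_WT and preSC_CracdKO. The level was highest in the library labelled preSC_CracdKO, against its label, and a 3-prime count may lie outside the deleted part. Both allograft libraries are therefore named below by their labels alone, and no direction between them is read as an effect of Cracd. Neutrophils themselves held 0, 1, 0 and 6 Cracd UMIs. The sex of the animals also moved with the lung groups. Xist, which silences an X chromosome in females, had 18 UMIs in RPR2 members and 0 in those of the other 3 libraries. Ddx3y, on the Y chromosome, had 0, 34, 2 and 7 UMIs in members of the 4 libraries in the same order. Sex and genotype cannot be told apart in the lung pair.

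Neutrophils are short-lived granulocytes that leave the bone marrow with their granule proteins already made. They carry little RNA, are drawn to tissue through the chemokine receptor Cxcr2, and depend on the growth factor receptor Csf3r. S100a8 and S100a9 form calprotectin, which is abundant in their cytosol, and activated neutrophils make the cytokine interleukin 1 beta (Il1b) and the chemokines Cxcl2, Ccl3 and Ccl4. In mouse lung tumours neutrophils are known to range from cells close to those of blood to cells rich in chemokine RNA.

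Promoters of 5 genes are shown because the results below turn on their levels. S100a8 and Retnlg, which encodes a secreted resistin-like protein, are genes of the rule, Ccl3 differed between the lung libraries, and Il1b and Cxcl2 had the highest ratios over other barcodes. Each sequence is the 250 bases before the transcription start, from RefSeq on GRCm38.p6, on the coding strand from 5′ to 3′. Capitals mark matches on either strand to 4 motifs: NF-kB, spelled GGG, any 2 bases and TTTCC, C/EBP, spelled TTNNGNAA, PU.1, spelled GAGGAA, and the TATA box, spelled TATAAA. In S100a8 a PU.1 match and the TATA match stand next to each other, and no 2 matches shown overlap.
S100a8, chr3:90668821-90669070, plus strand: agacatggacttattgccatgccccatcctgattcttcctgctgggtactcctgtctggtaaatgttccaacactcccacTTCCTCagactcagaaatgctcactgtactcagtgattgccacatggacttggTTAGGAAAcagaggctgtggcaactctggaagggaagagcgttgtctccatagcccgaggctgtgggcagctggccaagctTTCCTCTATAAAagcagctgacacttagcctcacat
Retnlg, chr16:48872358-48872607, plus strand: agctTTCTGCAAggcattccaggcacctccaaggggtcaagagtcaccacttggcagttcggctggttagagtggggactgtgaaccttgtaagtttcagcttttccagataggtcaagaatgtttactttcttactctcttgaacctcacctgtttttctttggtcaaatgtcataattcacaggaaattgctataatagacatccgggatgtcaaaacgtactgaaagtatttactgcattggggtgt
Il1b, chr2:129371140-129371389, minus strand: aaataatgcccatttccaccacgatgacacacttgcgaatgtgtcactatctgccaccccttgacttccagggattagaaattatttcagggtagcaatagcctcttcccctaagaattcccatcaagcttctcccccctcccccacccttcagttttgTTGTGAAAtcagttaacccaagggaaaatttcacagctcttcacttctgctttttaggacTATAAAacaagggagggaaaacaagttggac
Cxcl2, chr5:90903649-90903898, plus strand: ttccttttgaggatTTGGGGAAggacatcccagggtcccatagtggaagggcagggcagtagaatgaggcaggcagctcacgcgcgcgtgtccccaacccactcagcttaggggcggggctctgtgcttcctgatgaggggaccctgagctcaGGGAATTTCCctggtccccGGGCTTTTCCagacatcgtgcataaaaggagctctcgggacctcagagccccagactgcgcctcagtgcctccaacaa
Ccl3, chr11:83649379-83649628, minus strand: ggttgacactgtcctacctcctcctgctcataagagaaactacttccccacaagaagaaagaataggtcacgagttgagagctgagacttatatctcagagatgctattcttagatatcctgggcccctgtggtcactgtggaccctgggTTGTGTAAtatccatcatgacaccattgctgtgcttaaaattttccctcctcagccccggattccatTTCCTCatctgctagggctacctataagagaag
The NF-kB letters stood in 1.41% of 32817 mouse promoters of that length, and the Cxcl2 promoter held 2 such matches, from 97 to 88 and from 78 to 69 bases before the start. The other 4 promoters held 0 matches to these letters in this window. Each of the 5 held 1 match to the C/EBP letters, which stood in 36.8% of all promoters. The PU.1 letters, found in 23.3% of promoters, matched 2 times in S100a8 and 1 time in Ccl3. The TATA letters, found in 12.4%, matched 1 time each in S100a8 and Il1b. A match is a description of the sequence and not evidence of binding.

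The members fell into barcodes with few genes and barcodes with many. Of the 165, 129 held at most 1500 genes, with medians of 1810.5, 1173, 607 and 947 UMIs in RPR2, CRPR2, preSC_WT and preSC_CracdKO. The non-member barcodes had medians of 2906, 3333, 4033 and 6030 UMIs. The other 36 members held over 1500 genes and carried 61.6% of all member UMIs. Of these 36, 34 held at least 5 UMIs of neuroendocrine tumour markers such as Calca and Chga, against 3 of the 129. A doublet caller, Scrublet, marked 26 of the 36 and 4 of the 129. S100a8 and S100a9 made up 20.9%, 11.9%, 5.76% and 6.43% of the UMIs of few-gene members and 2.41%, 1.31%, 0.650% and 0.374% of those of gene-rich members. RNA of tumour cells thus stood beside neutrophil RNA in gene-rich barcodes, at 0.874%, 1.35%, 1.01% and 0.522% tumour markers. The non-member barcodes were close, at 0.653%, 0.924%, 0.967% and 0.600%. In RPR2, 1 of the 2 gene-rich members held 126 tumour marker UMIs and the other 0. Epithelial markers, which include airway genes, held 0.236%, 2.13%, 0.392% and 0.00927% of UMIs in gene-rich members, with 2856 UMIs in 1 CRPR2 member. In few-gene members tumour markers were 0.00729%, 0.0602%, 0.0773% and 0.0119% of UMIs. The limit of 1500 genes was chosen after seeing the data, and levels below are for the few-gene members unless all members are named.

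**Figure D1:**
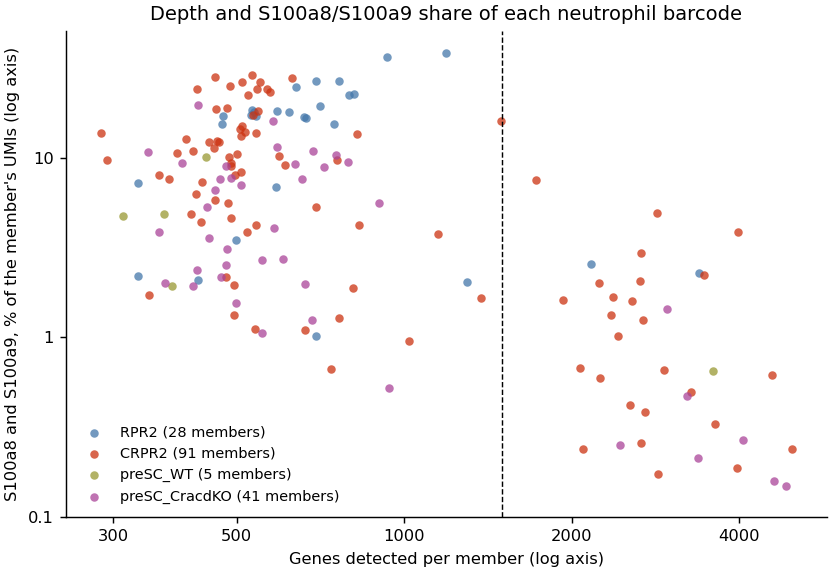
Each point is 1 neutrophil barcode, placed by its number of detected genes (x, log axis) and the share of its UMIs from S100a8 and S100a9 (y, in percent, log axis), and coloured by library. The dashed line marks 1500 genes, and the 36 members to its right have S100 shares of at most 7.58%, against up to 38.5% to its left.

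Markers of other cell types that a loose gate could admit held at most 0.131% of UMIs in the few-gene members. That level was reached by epithelial markers in CRPR2, with a UMI in 45 of 65 members, and by erythroid markers in preSC_CracdKO, in 12 of 34. B cell markers held 0.00729%, 0.0243%, 0 and 0.00298%, with a UMI in 4, 20, 0 and 1 members. Markers of mast cells and basophils, NK cells and platelets were at 0 UMIs in all 4 libraries. Eosinophil markers were at 0.00911% in RPR2 and 0 elsewhere, and T cell markers at 0.0128% in RPR2 and 0 elsewhere. The T cell and B cell lists include Cd3e and Cd79a, which the rule held at 0 UMIs. Low shares of these 2 lists were therefore partly set by the rule. Macrophage markers such as C1qa and Apoe reached 0.0648% of UMIs in CRPR2 and 0.0806% in preSC_CracdKO, and monocyte markers took 0.126%, 0.0497%, 0.0387% and 0.0269% in the usual order. Macrophage markers had a UMI in 3, 15, 0 and 14 members, and monocyte markers in 16, 25, 1 and 8. Of 25 neutrophil genes that the rule did not use, 23, 25, 18 and 22 had a UMI. Ly6g, the surface antigen of mouse neutrophils, was seen in 8, 4, 0 and 0 members. The mitochondrial share had medians of 0.270%, 0.385%, 0.647% and 1.10% over all members, below the 3.02%, 2.72%, 1.67% and 2.87% of the other barcodes. Members sat near both limits of the rule. Of all members, 14 held 10 to 14 UMIs of S100a8 and S100a9, and 12 barcodes with 5 to 9 lay just outside. With 1 UMI over the 5 second genes there were 8 members, and 13 barcodes with 0 lay outside. A further 6 barcodes were left out by a UMI of Cd3e or Cd79a, and 2 members held fewer than 300 genes. Libraries shared 36 to 79 barcode sequences by pair, and 0 of these were members in both.

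Neutrophils made up 0.306% (0.203% to 0.442%) of kept barcodes in RPR2 and 0.757% (0.610% to 0.929%) in CRPR2. In the allografts they made up 0.0270% (0.00878% to 0.0631%) of preSC_WT and 0.254% (0.182% to 0.344%) of preSC_CracdKO. The share was 2.47 times higher in CRPR2 than in RPR2 (1.60 to 3.93) and 9.39 times higher in preSC_CracdKO than in preSC_WT (3.71 to 30.5). Counting few-gene members alone, the ratios were 1.90 (1.19 to 3.13) and 9.74 (3.47 to 37.8). Against barcodes with a UMI of Ptprc, the leukocyte gene that encodes CD45, the shares were 0.675%, 3.92%, 0.225% and 12.4%, because 3853, 1736, 2222 and 178 kept barcodes had one. The ratios on that denominator were 5.80 (3.65 to 9.51) and 54.9 (20.3 to 186). The direction was the same on all these denominators, whereas its size followed the number of other leukocytes recovered. Dissociation, the lysis of red cells, a 20 µm strainer and dead cell removal, which came before loading, can each change the recovery of neutrophils, and their part was not tested. The deposited barcodes hold at least 500 UMIs, so shallower neutrophils are not counted in any share. The smallest members held 635, 577, 569 and 590 UMIs in RPR2, CRPR2, preSC_WT and preSC_CracdKO. How many neutrophils each library lost below that limit was not tested.

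Il1b and Cxcl2 were far above other barcodes in every library. Genes outside the rule were ranked by the lowest of the 4 library ratios. Over all members, the lowest of the 4 ratios of members over other barcodes of the same library was 89.2 for Il1b, which encodes interleukin 1 beta, and 75.7 for Cxcl2, a chemokine that recruits neutrophils. The next genes in that order were Ccrl2, a chemerin-binding receptor, at 49.9, Slc7a11, the cystine transporter, at 32.6, and Acod1, the enzyme that makes itaconate, at 32.5. Srgn, the proteoglycan core of granules, Clec4e and Clec4d, which are lectin receptors, Tyrobp, an adaptor of myeloid receptors, Ifitm1, Spi1, which encodes the myeloid factor PU.1, Mxd1, Lilr4b, Trem1 and Alox5ap, which serves leukotriene synthesis, completed the 15, down to a lowest ratio of 14.7. These genes rank high in cells chosen by other neutrophil genes, so the order is a description. In few-gene members Il1b stood at 15428, 18766, 13143 and 4057 CPM in RPR2, CRPR2, preSC_WT and preSC_CracdKO, with a UMI in 25, 63, 3 and 29 of 26, 65, 4 and 34 members. Both lung libraries were above the library labelled preSC_CracdKO, by 3.80 (95% interval 3.17 to 4.59) times in RPR2 and 4.63 (95% interval 3.88 to 5.55) times in CRPR2. Cxcl2 stood at 14955, 20212, 5412 and 23688 CPM in the same order, and there preSC_CracdKO was the highest. G0s2, an inhibitor of fat breakdown that is high in neutrophils, stood at 13115, 11616, 14302 and 6862 CPM. After every barcode was thinned to 500 UMIs, Il1b was seen in 88.5%, 92.3%, 75% and 73.5% of few-gene members, and in 0%, 0.25%, 0% and 1.35% of B-cell barcodes, which should lack it. Without thinning the shares were 96.2%, 96.9%, 75% and 85.3% of members and 0%, 0.75%, 0.75% and 1.35% of B-cell barcodes. The B-cell barcodes (at most 400 a library) had median depths of 2476, 1686.5, 949 and 922 UMIs.

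The genes that chose the members also differed in level, which is given as a description. S100a9 stood at 135157, 77781, 35562 and 39470.2 CPM and S100a8 at 74099.7, 40817, 22033 and 24792 CPM in the 4 libraries. Retnlg stood at 17031, 7127, 3865 and 4982 CPM, with a UMI in 20, 46, 3 and 10 members. Csf3r, the receptor of granulocyte colony-stimulating factor, stood at 1257, 1354, 1159.6 and 597 CPM. Cxcr2 stood at 747, 578, 387 and 269 CPM, Hdc, the enzyme that makes histamine, at 1166, 833, 3092 and 716 CPM, and Il1r2, the decoy receptor of interleukin 1, at 1421, 1157, 4252 and 2596 CPM. RPR2 was highest for S100a8, S100a9, Retnlg and Cxcr2, whereas Il1r2 and Hdc were highest in preSC_WT, where 4 members gave 11 and 8 UMIs.

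Within the lung libraries, the level of Retnlg was higher and that of Ccl3 lower in members with a larger share of S100 RNA. S100a8, S100a9 and Retnlg are genes of the rule, so the values that follow are a description and do not show separate groups of cells. The share of S100a8 and S100a9 in a member's UMIs ran with that of Retnlg at a Spearman rho of 0.73 over 26 few-gene members of RPR2 and 0.65 over 65 of CRPR2, and at -0.06 over 34 of preSC_CracdKO. Retnlg ran against Ccl3, a chemokine that draws monocytes and other leukocytes, at -0.54, -0.51 and -0.10 in the same libraries. Members of a library share its depth and its free RNA, and shares of 1 total are tied to each other, so these values carry no p. In CRPR2, the 32 members above the median S100 share of 10.1% held Retnlg at 11920 CPM, Ccl3 at 2730 CPM and Ccl4 at 977 CPM. The 33 members at or below it held 1909, 7587 and 4591 CPM. Among these 33, members with S100 shares of 1.09%, 1.28% and 0.665% held 91, 38 and 49 Ccl3 UMIs and 75, 40 and 25 Ccl4 UMIs. Mmp8, a collagenase of secondary granules, was at 266 CPM in the first group and 0 in the second, and Hilpda, a lipid droplet protein induced by low oxygen, at 200 and 967 CPM. Il1b at 19135 and 18364 CPM and Fth1, ferritin heavy chain, at 20267 and 21384 CPM were nearly level between them. Retnlg had a UMI in 29 of the first 32 members and 17 of the other 33, and Ccl3 in 15 and 24. In RPR2 the 13 members above its median of 17.3% held Retnlg at 24153 CPM and Ccl3 at 202 CPM, and the 13 others held 4761 and 3075 CPM, with 49 of the library's 69 Ccl3 UMIs in 1 member. Retnlg had a UMI in 13 and 7 of these 13 members each, and Ccl3 in 1 and 7. Il1b at 12062 and 21228 CPM and Fth1 at 12494 and 23162 CPM were lower in the S100-rich members of RPR2, unlike in CRPR2. The S100-rich members of RPR2 included 2 barcodes with 6723 and 5306 UMIs, which held 0 and 3 Il1b UMIs. Over the other 24 RPR2 members Il1b stood at 19687 CPM. The split was not repeated without the 2 barcodes, so the contrast with CRPR2 may rest on them. In preSC_CracdKO, 17 members above its median of 5.48% and 17 below held Retnlg at 5386 and 4502 CPM and Ccl3 at 3792 and 3785 CPM, nearly level between the groups. By presence of a UMI, 4 RPR2 members had both Retnlg and Ccl3, 16 had Retnlg alone, 4 had Ccl3 alone and 2 had neither. The same counts were 22, 24, 17 and 2 in CRPR2, 0, 3, 0 and 1 in preSC_WT, and 5, 5, 12 and 12 in preSC_CracdKO.

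**Figure D2:**
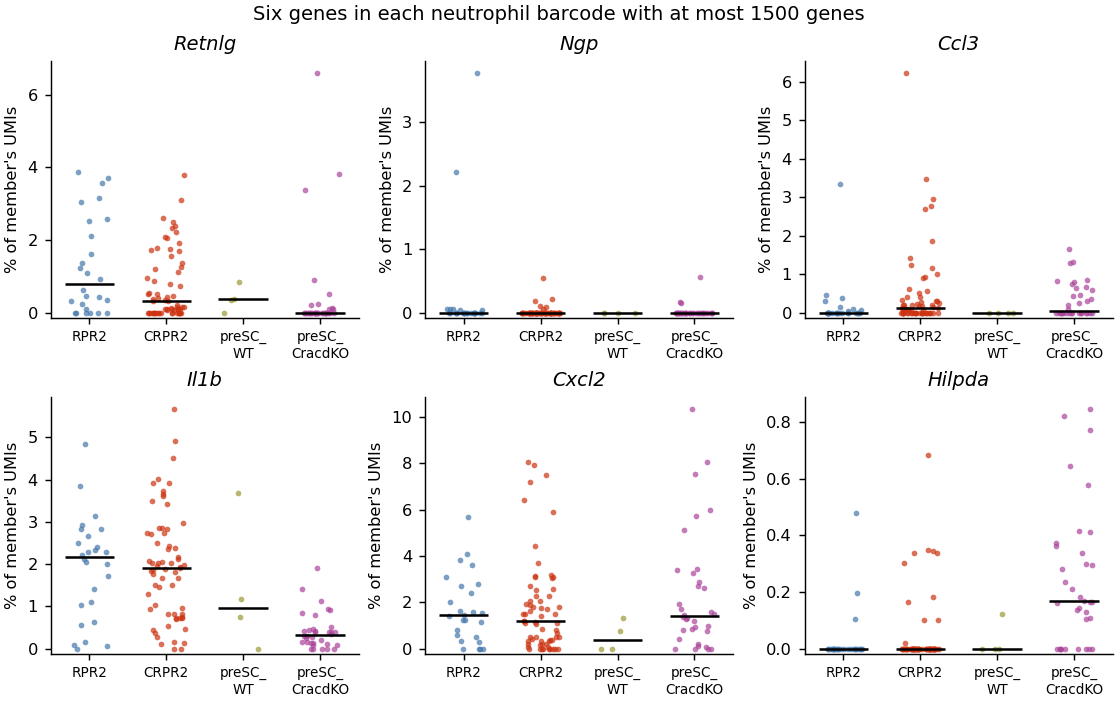
Each point is 1 neutrophil barcode with at most 1500 genes, and the y axis is the percent of its UMIs from the gene named above each panel, with 26, 65, 4 and 34 members from left to right and a bar at the median. Ngp is confined to a few barcodes, 2 of them in RPR2 far above the rest, Il1b is lower in preSC_CracdKO at a median of 0.322% against 2.17% in RPR2, and Hilpda is above 0 at the median in preSC_CracdKO only.

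In the lung pair, over all members, 314 of 948 genes tested (33.1%) were at least 2-fold higher in CRPR2 and 193 (20.4%) at least 2-fold lower. A gene was tested with at least 200 CPM and 10 UMIs in the higher library, and ratios were taken after adding 10 CPM. The genes with the highest ratios were those of other cells, among them Tagln, Sparc, Col3a1 and Col1a1 of fibroblasts and Scgb1a1 of airway club cells. Single barcodes weighed on such genes. In CRPR2, 1 gene-rich member held 2856 UMIs of epithelial markers, a list that includes Scgb1a1. Another, with 23502 UMIs, had 2.83% of them from markers of other cell types, with 60 UMIs of tumour and 27 of epithelial markers. Of the 314 higher calls, 19 had most of their UMIs in 1 member and 23 in 2 members. Scgb1a1 stood at 11532 CPM over all CRPR2 members and at 1018 CPM in those with few genes. With few-gene members, 175 of 750 genes (23.3%) were higher in CRPR2 and 71 (9.47%) lower. Of the genes higher over all members, 32.2% were also higher with few-gene members, which is 57.7% of the latter, and of the lower genes 25.9%, which is 70.4%. The share of calls that were higher in few-gene members was 71.1%, and it was 60.0% with totals that leave out the rule genes, 63.4% with median-of-ratios scaling, and 44.0% among genes higher in members than in other barcodes. Over all members the corresponding shares were 61.9%, 49.5%, 33.6% and 26.6%.

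**Figure D3:**
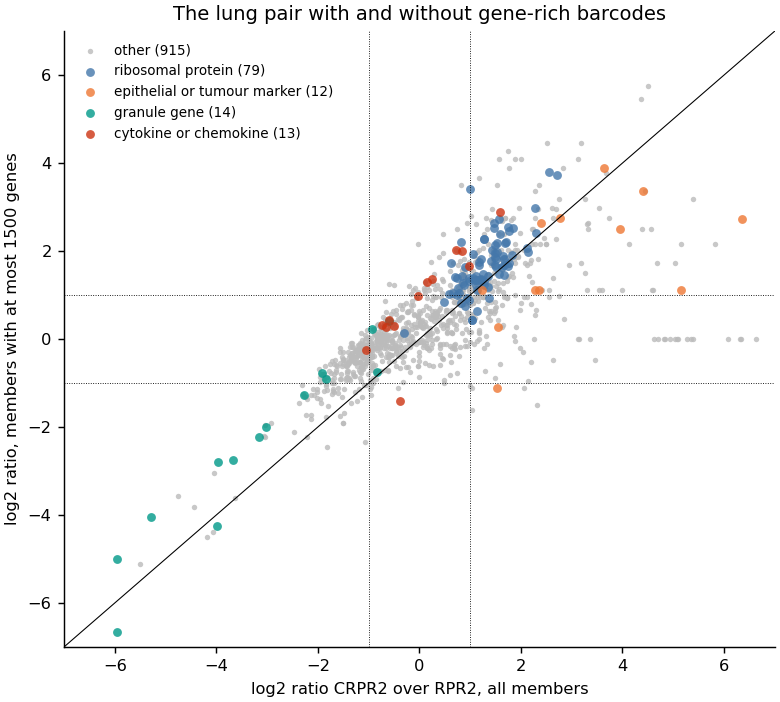
Each point is a gene, with its log2 ratio of CRPR2 over RPR2 over all members on the x axis and over members with at most 1500 genes on the y axis, dotted lines at 2-fold and a diagonal of equality. The 12 epithelial and tumour markers lie to the right of 2-fold, most granule genes lie below 0 on both axes and ribosomal protein genes lie above 0 on both, apart from 1 gene on the x axis.

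Most tested granule genes were lower in CRPR2 than in RPR2, through 2 barcodes for the genes that differed most. Of 21 genes of secondary and tertiary granules, the stores of antimicrobial proteins and proteases, 14 were tested, 9 were lower and 0 higher, where 9.47% of all tested genes were lower, with a median log2 ratio of -1.85 against 0.20 over all genes. Over all members 11 of 14 were lower, with a median of -2.27 against 0.54. Ltf, lactoferrin, stood at 2168, 11.6, 0 and 0 CPM in the 4 libraries, Camp, cathelicidin, at 2168, 57.8, 0 and 0 CPM, and Ngp, neutrophilic granule protein, at 6867, 405, 0 and 298 CPM. Lcn2, lipocalin 2, stood at 5665, 1399.9, 773 and 985 CPM, and RPR2 was above the other 3 libraries for each of these genes. The level in RPR2 rested on 2 of its 26 members, with 6723 and 5306 UMIs and S100 shares of 38.5% and 36.5%. They held 53 and 66 of the 119 Camp UMIs, 87 and 32 of the 119 Ltf UMIs, 254 and 118 of the 377 Ngp UMIs, and 149 and 106 of the 311 Lcn2 UMIs. They held 0 and 3 of the 847 Il1b UMIs. Without these 2 members the median of the granule list was -0.35, and Lcn2 stood at 1306 CPM in RPR2, with a ratio of CRPR2 over RPR2 of 1.07 (0.775 to 1.499). Ngp turned direction, at 5 UMIs and 117 CPM in the other 24 RPR2 members and a ratio of 3.47 (1.35 to 11.4). Camp and Ltf had 0 UMIs in those 24.

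Some granule and surface genes were lower in CRPR2 also without those 2 members. Mmp8 stood at 1020.1 CPM in RPR2 against 139 CPM in CRPR2, and the ratio without them was 0.283 (0.127 to 0.603). Ifitm6 stood at 1621 CPM in RPR2 against 231 CPM in CRPR2, with 0.331 (0.178 to 0.602), and Lrg1, a secreted glycoprotein, at 1858 CPM in RPR2 against 393 CPM in CRPR2, with 0.208 (0.135 to 0.314). Ly6g stood at 419 CPM in RPR2 against 81.0 CPM in CRPR2, with 0.267 (0.0902 to 0.720). The values that follow include those 2 members. Of 22 tested neutrophil markers that the rule did not use, 8 were lower in CRPR2 and 0 higher, with a median of -0.57. Of all tested genes 9.47% were lower and 23.3% higher, and the median over all genes was 0.20. Cybb, the catalytic subunit of the oxidase that makes superoxide, had 22 UMIs in 4 RPR2 members and 1 UMI in CRPR2. Of these RPR2 UMIs, those 2 members held 11 and 3. The other 24 held 8 in 2 members, below the 10 UMIs needed for a call. Cybb was the 1 lower gene among 6 tested of the oxidative burst. The formyl peptide receptors Fpr1 and Fpr2 sense bacterial peptides. Fpr1 stood at 255 CPM in RPR2 against 46.3 CPM in CRPR2. For Fpr2 the levels were 401 CPM in RPR2 against 150.4 CPM in CRPR2. Adhesion and chemotaxis genes as a list had no single direction, with 2 of 15 tested higher in CRPR2, 2 lower and a median of -0.19. Among 10 tested pattern recognition receptors, 0 were past 2-fold in either direction, and Cd14, a co-receptor for bacterial lipopolysaccharide, stood at 3516 CPM in RPR2 against 2615 CPM in CRPR2. Primary granule genes such as Mpo and Elane, made by bone marrow precursors, gave 0 of 6 genes that could be tested.

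Several chemokine and cytokine genes were higher in CRPR2 among few-gene members. Of 13 tested, 6 were higher, against 23.3% of all tested genes, namely Ccl3, Ccl4, Il1a, Tnf, Csf1 and Ptgs2, 1 was lower, Cxcl3, and the median was 0.71 against 0.20 over all genes, or 0.37 without the 2 granule-rich RPR2 members. Ccl3 stood at 1257, 5056, 0 and 3789 CPM in the 4 libraries, with a UMI in 8, 39, 0 and 17 members. Its ratio of CRPR2 over RPR2 was 4.02 (95% interval 3.11 to 5.26). Ccl4, a close relative of Ccl3, stood at 656, 2707, 1546 and 955 CPM in 3, 18, 1 and 8 members, with a ratio of 4.13 (95% interval 2.90 to 6.04). Both genes were concentrated in few barcodes. CRPR2 members with 16, 18 and 11 S100a8 and S100a9 UMIs, near the limit of 10, held 75, 40 and 25 Ccl4 UMIs. The same members held 91, 38 and 49 Ccl3 UMIs and 0 Retnlg UMIs. In RPR2, 1 member held 23 Ccl4 UMIs. Ccl3 is a chemokine of many myeloid cells. Monocyte and macrophage barcodes, taken as 1 group, held it at 416 and 366 CPM in RPR2 and CRPR2, below the few-gene neutrophils. That group had no upper limit on genes, so it and the neutrophils were not taken alike. Il1a, interleukin 1 alpha, was in 6 CRPR2 members at 602 CPM and in 2 of RPR2 at 72.9 CPM. Ptgs2, the inducible cyclooxygenase, was spread wider, in 35 CRPR2 members at 764 CPM and in 8 of RPR2 at 291 CPM, with a ratio of 2.62 (95% interval 1.5 to 4.85). Tnf stood at 164 CPM in RPR2 against 416 CPM in CRPR2, where 20 of 36 UMIs were in 1 member. Csf1, the macrophage growth factor, stood at 164 CPM in RPR2 against 544 CPM in CRPR2, in 21 members there. Il1b and Cxcl2 differed less, with ratios of 1.22 (95% interval 1.12 to 1.32) and 1.35 (95% interval 1.24 to 1.47). Over all members 0 of 10 tested genes of this list were higher and 1 was lower, with a median of -0.17, so these calls were made only without the gene-rich barcodes. After thinning to 500 UMIs, Ccl3 or Ccl4 was seen in 23.1% of RPR2 and 53.8% of CRPR2 members (8.97% to 43.6%, and 41.0% to 66.3%), against 2.75% and 3.25% of B-cell barcodes. Unthinned shares were 34.6% and 64.6% of members and 8% and 7.5% of B-cell barcodes.

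NF-kB, a transcription factor of inflammatory signalling, induces genes that restrain it. Of 6 tested, 3 were higher in CRPR2 and 0 lower, against 23.3% higher and 9.47% lower over all tested genes, with a median of 0.61. Ier3 stood at 437, 1747, 1933 and 2029 CPM, Nfkbia, the inhibitor that holds NF-kB in the cytosol, at 2259, 4998, 6185 and 1969 CPM, and Tnfaip3, an enzyme that removes ubiquitin, at 219, 497, 387 and 179 CPM. Their ratios were 3.996 (95% interval 2.59 to 6.43), 2.21 (95% interval 1.81 to 2.72) and 2.28 (95% interval 1.18 to 4.74). Of 8 tested genes described in tumour-associated neutrophils, 4 were higher and 0 lower, with a median of 1.32, and the 4 were Ccl3, Ccl4, Csf1 and Hilpda, of which all but Hilpda are also on the chemokine list. Over all members 1 NF-kB gene was higher and 1 lower, with a median of -0.28, and of the tumour-associated genes 0 were higher and 2 lower. Of 20 tested genes of dissociation stress, 4 were higher and 0 lower, namely Jun, Ier3, Hspa1b and Hspa8, a share near that of all tested genes. Jun stood at 565 CPM in RPR2 against 1296 CPM in CRPR2, and Fos at 1494 CPM in RPR2 against 1770.1 CPM in CRPR2. Of 5 tested type I interferon genes, 2 were lower, Ifitm3 and Slfn1, and 0 higher, with a median of -0.79. Isg15, a ubiquitin-like modifier, stood at 383 CPM in RPR2 against 266 CPM in CRPR2, with a ratio of 0.696 (95% interval 0.368 to 1.32) that did not separate the libraries.

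Ribosomal protein genes made up 67 of the 175 higher calls in CRPR2, out of 76 tested, with 0 lower and a median log2 ratio of 1.64. Together they took 2.59%, 7.04%, 3.29% and 5.85% of UMIs in RPR2, CRPR2, preSC_WT and preSC_CracdKO. Other barcodes with at most 1500 genes were at 22.4%, 21.3%, 19.1% and 24.7%, where the lung libraries were close. Rps29 stood at 674, 1839.5, 1546 and 2267 CPM and Rplp1 at 364, 1446, 387 and 1193 CPM, and both were lowest in RPR2. Without the 2 granule-rich members the median was 1.60. Epithelial markers were also higher, at 0.0182% of UMIs in RPR2 and 0.131% in CRPR2 few-gene members, and at 0 in both allografts. Club cell genes, thinned to 500 UMIs, were seen in 19.2% of RPR2 and 41.5% of CRPR2 members, against 4.5% of RPR2 B-cell barcodes, 28.5% of CRPR2 B-cell barcodes and, among other few-gene barcodes, 8.75% in RPR2 and 40.25% in CRPR2. The part of RNA from other cells in the ribosomal difference was not tested.

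Single genes at the extremes rested on few barcodes or on copies. H2-Q10, a class I gene with near-identical relatives whose reads can be split between them, had 46 UMIs in 31 CRPR2 members and 0 in RPR2. Apoe had 37 UMIs in 6 CRPR2 members, 24 of them in 1, and is a macrophage gene. Nupr1 had 93 of its 95 CRPR2 UMIs in 1 member. Ftl1-ps1, a ferritin pseudogene, stood at 1949 CPM in RPR2 against 46.3 CPM in CRPR2, and was also unequal in other barcodes, at 450.4 and 13.6 CPM. Of the lower calls in few-gene members, 10 of 71 had most of their UMIs in 1 member and 24 of 71 in 2 members, against 6 and 10 of 175 higher calls.

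**Figure D4:**
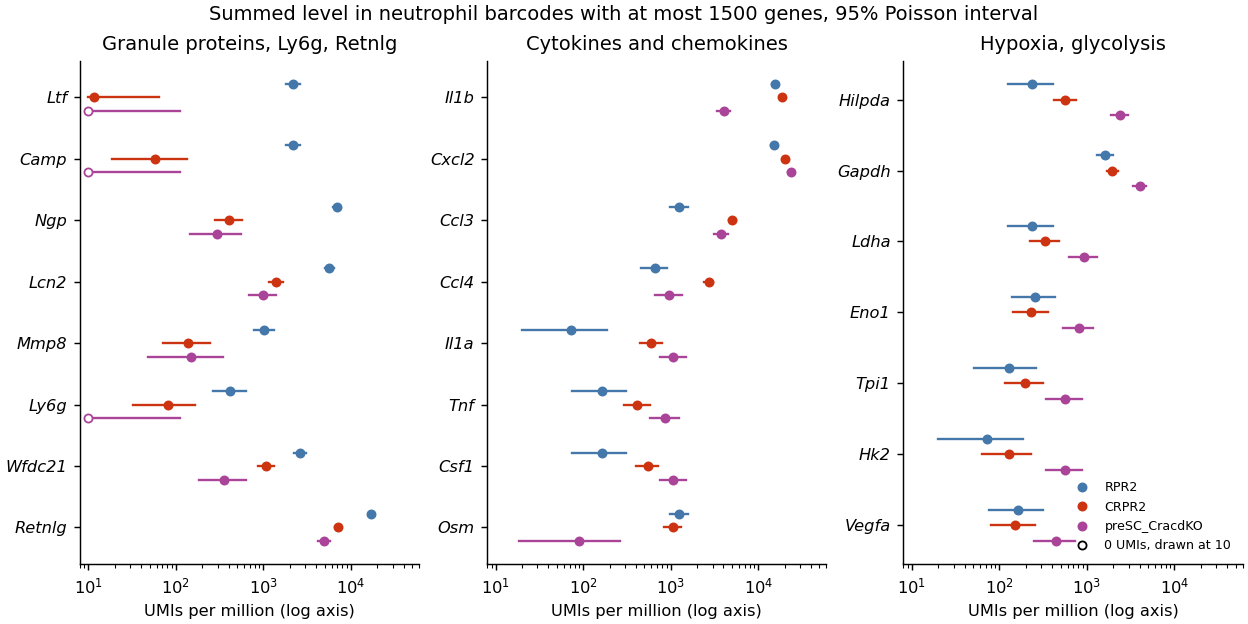
Points are the CPM (x, log axis) of each gene summed over neutrophil barcodes with at most 1500 genes, with 95% Poisson intervals, for RPR2 (26 members), CRPR2 (65) and preSC_CracdKO (34), and open circles have 0 UMIs and are drawn at 10. RPR2 stands above both others for each granule gene shown, CRPR2 stands above RPR2 for Ccl3 and Ccl4, and preSC_CracdKO stands above both lung libraries for each hypoxia and glycolysis gene shown.

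The allograft pair gave little information on levels, because preSC_WT had 5 members with 10745 UMIs, of which 1 gene-rich barcode held 75.9%. Over all members, 270 of 579 genes (46.6%) were higher in preSC_CracdKO and 44 (7.6%) lower. With few-gene members, 256 of 370 (69.2%) were higher and 16 (4.32%) lower. In that setting 1 UMI in preSC_WT is 387 CPM, so a gene at 0 there was not detectable rather than absent. Of the 44 lower calls over all members 33 had most of their UMIs in 1 barcode, as had 7 of the 16 with few-gene members. Il1b, with 34 UMIs over 3 preSC_WT members, 21 of them in 1, was lower in preSC_CracdKO at a ratio of 0.309 (95% interval 0.211 to 0.464). Cebpb, a transcription factor of neutrophil development, had 14 UMIs over 4 preSC_WT members and was at 5412 against 895 CPM, a ratio of 0.165 (95% interval 0.0850 to 0.338). Ccl3 had 0 UMIs in preSC_WT and 127 in preSC_CracdKO, which is at least 3.27-fold higher against a limit of 3 counts over the group.

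For lung against allograft, the lower of the lung libraries was set against the higher of the others. Against both allograft libraries, 31 of 284 genes (10.9%) were higher in lung and 1 (0.352%) lower with few-gene members, and 30 (8.43%) and 6 (1.69%) of 356 over all members. Because of the depth of preSC_WT, both lung libraries were also compared with preSC_CracdKO alone, a comparison added after seeing the data. There 83 of 693 genes (12%) were higher in lung and 159 (22.9%) lower, and over all members 83 (9.6%) and 175 (20.2%) of 865, or 29.8% in either direction. The median log2 ratio over all genes was -0.64. Median-of-ratios scaling moved the share of higher calls over all members from 32.2% to 54.2% and the median over all genes from -0.49 to -0.23, and with few-gene members the share of higher calls from 34.3% to 49.6%. Tissue, model and the version of the counting software also differ between the pairs and cannot be told apart.

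Most tested hypoxia and glycolysis genes were higher in the neutrophils of preSC_CracdKO than in those of both lung libraries. Of 16 tested, 10 were higher there and 0 lower, against 22.9% and 12% of all tested genes, with a median of -1.06 for lung over preSC_CracdKO, and over all members 2 of 13, with a median of -0.54. Their summed share was 0.672%, 0.691%, 0.850% and 1.56% of UMIs in few-gene members of the 4 libraries, against 0.464%, 0.591%, 0.364% and 0.786% in other barcodes and 0.253%, 0.358%, 0.345% and 0.994% in other barcodes with few genes. The library as a whole was thus also higher. Hilpda stood out with 237, 567, 387 and 2387 CPM and a UMI in 3, 11, 1 and 25 members, against 35.6, 59.4, 15.9 and 16.3 CPM in other barcodes. It was 4.21 (95% interval 2.91 to 6.14) times higher in preSC_CracdKO than in CRPR2 and 10.1 (95% interval 5.57 to 19.7) times higher than in RPR2. After thinning, 58.8% (40.7% to 75.4%) of preSC_CracdKO members had a Hilpda UMI, against 7.69% in RPR2 and 9.23% in CRPR2, and 0 of 74 B-cell barcodes of preSC_CracdKO. Unthinned shares were 73.5%, 11.5% and 16.9% of members and 4.05% of those B-cell barcodes. Gapdh stood at 1603, 1955, 1546 and 4028 CPM, Ldha, lactate dehydrogenase, at 237, 336, 0 and 925 CPM, and Eno1, enolase, at 255, 231, 0 and 806 CPM, but in other barcodes Ldha stood at 469.9, 669.8, 227 and 607 CPM. Hk2, the hexokinase that starts glycolysis, stood at 72.9, 127, 1159.6 and 567 CPM, and Vegfa, the growth factor of blood vessels, at 164, 150.4, 0 and 448 CPM. Mif, a cytokine, stood at 182, 463, 0 and 2148 CPM and at 648, 697, 554 and 2636 CPM in other barcodes, so it was high throughout that library.

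Further genes were higher in neutrophils of preSC_CracdKO than in those of both lung libraries. Adamdec1, a secreted metalloprotease known from macrophages, had 54 UMIs in 15 of 34 members and 0 in those of the other 3 libraries, at 1611 CPM. Monocyte and macrophage barcodes of that library, with no upper limit on genes, held it at 54.1 CPM and its other barcodes with few genes at 3.45 CPM. The level was at least 29.5-fold higher than in RPR2 and at least 46.4-fold higher than in CRPR2, against a limit of 3 counts over each group. Ltc4s, which makes the leukotriene LTC4, had 0, 6, 0 and 15 members with a UMI, at 0, 139, 0 and 656 CPM. Cass4, an adhesion scaffold, stood at 36.4, 81.0, 0 and 806 CPM, and Runx1, a transcription factor of blood cells, at 91.1, 139, 0 and 746 CPM in the 4 libraries. Il1rn, the interleukin 1 receptor antagonist, at 546, 683, 0 and 1313 CPM, was under 2-fold above CRPR2. Bcl2a1a and Bcl2a1d, which code for near-identical survival proteins and can share reads, stood at 54.6, 219.8, 0 and 686 CPM and at 36.4, 231, 0 and 597 CPM. Of 9 tested survival genes 4 were higher in preSC_CracdKO and 0 lower, where 22.9% of all 693 tested genes were higher there and 12% lower. Lrmda, in 23 members at 1909 CPM, and Cmss1, in 33 at 8264 CPM, had 0 UMIs in both lung libraries' few-gene members. Cmss1 was in 4 of 4 few-gene members of preSC_WT and was also unequal in other barcodes, at 28.3, 22.7, 851 and 2279 CPM. Lrmda was likewise unequal in monocyte and macrophage barcodes, at 3.95, 0.772, 299 and 264 CPM.

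Cd14, Osm and Cebpb were lower in preSC_CracdKO neutrophils than in those of both lung libraries. Cd14 stood at 3516, 2615, 0 and 418 CPM, 8.42 (95% interval 4.90 to 15.7) times higher in RPR2 and 6.26 (95% interval 3.65 to 11.6) times higher in CRPR2 than in preSC_CracdKO. Osm, oncostatin M, a cytokine that neutrophils release, stood at 1257, 1053, 1546 and 89.5 CPM, and its 3 UMIs in preSC_CracdKO were in 1 member. The ratios of RPR2 and CRPR2 over preSC_CracdKO were 14.0 (95% interval 4.61 to 69.8) and 11.8 (95% interval 3.90 to 58.1). Cxcr4, which guides aged neutrophils to bone marrow, stood at 364, 289, 0 and 59.7 CPM. Of 13 tested adhesion and chemotaxis genes 5 were higher in both lung libraries and 1 lower, against 12% and 22.9% of all tested genes. Cebpb stood at 4098, 3772, 5412 and 895 CPM, and of 8 tested myeloid transcription factors 4 were higher in lung and 1 lower, against the same shares. Zfp36, which speeds the decay of cytokine RNA, stood at 2295, 2649, 1546 and 269 CPM, and Dusp1, a phosphatase of stress kinases, at 2696, 2788, 2319 and 448 CPM. Other barcodes of that library were also low in immediate-early genes, with Fos at 2289.9, 3047, 2529 and 57.7 CPM and Dusp1 at 391, 472, 271 and 17.3 CPM. Isg15 was seen in 8, 15, 0 and 0 members, and of 3 tested interferon genes 2 were higher in lung and 0 lower. Lyz2, lysozyme, ran the other way at 2659, 3124, 2319 and 5519 CPM. Chemokine genes gave 3 of 12 tested higher in lung and 1 lower, so this list had no single direction.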

How the data were processed

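Single-cell suspensions for 2 mouse lung and 2 allograft libraries were barcoded with a 10x Genomics 3-prime kit, per the labels' protocols. The deposited matrices hold UMI counts per gene and barcode, made by the authors with Cell Ranger 6.1.2 for the lung libraries and 5.0.0 for the allografts, per the file headers, on mm10, per the submitters' processing notes. These notes also name Scanpy 1.8.2. The files list 32285 features for lung and 31053 for the allografts, of which 30406 are shared by identifier.

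The members and gene lists were chosen with earlier results of these data known. Of 56220 deposited barcodes, 55800 passed at least 200 genes and at most 15% mitochondrial UMIs. Library totals ran from 4.26e+07 to 1.11e+08 UMIs. Members' UMIs were summed per library (69319, 284263, 10745 and 98246 for RPR2, CRPR2, preSC_WT and preSC_CracdKO) and scaled to CPM. Log2 ratios were taken after adding 10 CPM, and a gene was called at 2-fold with at least 200 CPM and 10 UMIs in the higher library. List medians cover genes with at least 50 CPM. In comparisons of several libraries the smallest separation between the groups was used. With 1 library a group no test was made. Intervals are exact 95% Poisson (sums), conditional binomial (ratios) and Clopper-Pearson (shares) intervals, and cover counting error only. Shares of barcodes with a UMI were computed after thinning to 500 UMIs, with comparison groups capped at 400 barcodes.

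Barcodes called doublets were kept in the main analysis and left out in an alternative. Scrublet, run through Scanpy 1.11.5 with its automatic threshold, marked 239 barcodes of RPR2 and 411 of preSC_WT. In CRPR2 and preSC_CracdKO that threshold marked under 0.5% of barcodes, and the top-scoring 1156 and 2085 were taken instead, at 0.8% per 1000 barcodes. Monocyte and macrophage barcodes, as 1 group, and B-cell barcodes were rebuilt from 3 or more UMIs of their markers, with no upper limit on genes. The first group used C1qa, C1qb, C1qc, Csf1r, Ccr2 and Ms4a6c, of which Ccr2 and Ms4a6c are on the monocyte list. The genes named are the rule genes, the 15 genes outside the rule with the highest lowest-of-4 ratio over other barcodes, the 12 highest and 12 lowest called genes of each comparison, list members past 2-fold, up to 4 list members with most UMIs, and Cracd. A few others, such as Cass4 and Fos, were named after their values were seen. Alternatives changed the member rule, the scaling, the pseudocount, the floors and the denominators. The limit of 1500 genes, the removal of 2 granule-rich members, the comparison with preSC_CracdKO alone and the ribosomal list were chosen after seeing the data. Values of 2 genes that these rules name are not reported here. Calculations used Python 3.11.15, numpy 2.4.6, scipy 1.17.1 and pandas 2.3.3, and the code was tested on simulated data.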

Additional observations from a re-analysis of the deposited data

Results flagged for a closer look

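The log2 ratios of the 14 genes below, over all members, lay past 2-fold in opposite directions in the 2 pairs, CRPR2 over RPR2 and preSC_CracdKO over preSC_WT. The differences between the pairs were not tested, and preSC_WT had 5 members, of which 1 gene-rich barcode held 75.9% of the UMIs. In the lung pair, gene-rich members, which also held tumour RNA, carried 69.6% of member UMIs in CRPR2 and 20.8% in RPR2. A ratio over all members can thus reflect that RNA rather than the neutrophils. Genes of tumour or other non-myeloid cells were higher in CRPR2 and lower in preSC_CracdKO. Calca was at 2.40 and -2.62, Ccn3 at 2.61 and -4.79, Epcam at 3.95 and -5.53, Meis2 at 2.35 and -2.99, Ptn at 2.31 and -2.70, and Stmn1 at 1.88 and -1.44. The early response genes Egr1, at 1.73 and -1.88, and Jun, at 1.02 and -1.97, had the same directions. Genes of myeloid cells and of glucose uptake went the other way. Clec4e was at -1.33 and 1.00, Cybb at -3.99 and 1.3, Gsn at -1.22 and 2.21, Samsn1 at -1.24 and 5.31, Slc2a3 at -2.14 and 4.83, and Tnfaip2 at -1.15 and 1.19.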

How the results depend on the processing

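No paired analysis was possible because each group held 1 library. Of 198 values recomputed, 154 stayed close to the reported one, 44 moved, and the cause was not tested. The share ratio of CRPR2 over RPR2 was 5.80 among barcodes with a Ptprc UMI. That of preSC_CracdKO over preSC_WT was 54.9 there and 32.9 with all barcodes limited to 1500 genes. The count of genes past 2-fold was 507 in the lung pair over all members. It was 329 without Scrublet doublets, 286 without members with over 1% UMIs of other cell types, and 246, 220 and 257 with at most 1500, 1000 and 2000 genes. It was 2201 with no floor on CPM, 283 by the mean per member and 259 among genes higher in members than in other barcodes. With at most 1500 genes it was 216 without the 2 granule-rich members, 275 without rule genes in the totals, 306 with median-of-ratios scaling, 218 by the mean per member and 125 among genes higher in members. In the allograft pair the count of 314 became 503 without doublets, 495 without members with other RNA, 735 with no floor, 198 among genes higher in members and 199 for these with at most 1500 genes. For both lung over both allograft libraries the count of 36 became 61 without members with other RNA, 89 with median-of-ratios scaling, 66 with no floor, and 91 with median-of-ratios scaling and at most 1500 genes. For both lung libraries over preSC_CracdKO the count of 258 became 493, 674 and 166 without members with other RNA, with no floor and among genes higher in members. The granule median in the lung pair was -2.87 with median-of-ratios scaling and -0.35 with at most 1500 genes and without the 2 granule-rich members, and that of lung over preSC_CracdKO was 1.56 without members with other RNA. The cytokine median changed sign with at most 1500 genes, from -0.17 to 0.71 in the lung pair and from 0.10 to -0.49 for lung over preSC_CracdKO.

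Shares of all members with a UMI were higher without thinning. Granule genes were then in 28.6% of RPR2 and 12.1% of CRPR2 members, Il1b in 96.7% and Ccl3 or Ccl4 in 62.6% of CRPR2, and Hilpda in 24.2% of CRPR2 and 78.0% of preSC_CracdKO. After thinning, among members with at least 20 S100a8 and S100a9 UMIs, Hilpda was in 0% of RPR2, Il1b in 93.7% of CRPR2 and 100% of preSC_WT, and Ccl3 or Ccl4 in 0% of preSC_WT. After thinning and with at most 1500 genes Hilpda was in 0% of preSC_WT. With 1 library a group and 5 members in preSC_WT, depth limits the allograft pair, and differences between animals cannot be told apart from those between groups.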
